A study of Mus musculus with 10 samples.

Results

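Histones are the proteins that wrap nuclear DNA, and platelets are blood cell fragments without a nucleus that inherit their RNA from megakaryocytes. The histone rows of a platelet count table were taken by symbol, as every row that begins with Hist and a digit, H2af, H3f or H1f. These were 82 of 23420 rows, of which 68 were replication-dependent rows (the Hist symbols) and 14 were replacement rows. Hist3h2bb-ps among the 68 and H2afy3 among the 14 are annotated as processed pseudogenes and had 0 counts. Platelets were sorted by FACS from the peripheral blood of adult mice into a fraction that carried the red fluorescent protein Tomato (Tomato+) and a fraction that did not (Tomato-), with 5 libraries each. The sources used here do not name the gene that drives Tomato, nor the strain, exact age or other alleles of the mice. The labels name the sequenced molecule polyA RNA and the design text speaks of total RNA. Nothing says that the 5 libraries of a group are from different mice, so a p-value here refers to variation among libraries and that variation may be technical.

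Replication-dependent histone genes are transcribed in S phase, when new DNA needs packing. Their messenger RNAs have no introns as a rule and end in a short stem-loop that the stem-loop binding protein Slbp recognises, in place of a poly(A) tail. Replacement histones are made throughout the cell cycle from genes that mostly have introns and a conventional poly(A) signal. Polyadenylated forms of replication-dependent histone transcripts are known from differentiated cells, and libraries of polyadenylated RNA sample such forms.

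Total counts ran from 5.41 to 16.2 M per library (M, 1000000 counts). Levels are counts per 1000000 counts of the library (CPM), with mean ± SD over 5 libraries per group. A library with no count for a gene allows a level of up to 0.185 to 0.554 CPM (3 counts), which covers counting error only, since the counts carry no molecular identifiers. Tomato- libraries 1, 2 and 5 stood apart with 902, 978 and 807 detected genes, against 1118 to 2450 in the other 7. The 10 platelet markers all had counts and summed to 52888 ± 6578 CPM in Tomato+ libraries, against 55143 ± 4562 CPM in Tomato-. In bulk libraries fewer cells that carry a transcript and less of it per cell cannot be told apart.

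Some leading genes carry both kinds of end signal in their annotated 3′ ends, some carry 1 kind and Hist1h2bc neither, and the sites below are printed because they mark where a stem-loop end and a poly(A) end would lie. They are read from GENCODE M21 transcripts (GRCm38, the assembly of mm10), 5′ to 3′ in the sense of the gene. Capitals mark the stem-loop, whose 16 bases were searched in the 100 bases after the stop codon, or the poly(A) signal (AATAAA or ATTAAA), searched in the last 50 bases of a transcript.
Hist1h1c stem-loop, chr13:23739507-23739532, plus strand: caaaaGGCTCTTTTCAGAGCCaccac
Hist1h1c poly(A) signal, chr13:23740332-23740357, plus strand: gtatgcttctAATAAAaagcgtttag
Hist1h4i stem-loop, chr13:22040961-22040986, minus strand: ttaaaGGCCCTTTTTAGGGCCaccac
Hist1h4i poly(A) signal, chr13:22040641-22040666, minus strand: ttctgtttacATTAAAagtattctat
Hist1h2ac stem-loop, chr13:23683472-23683497, minus strand: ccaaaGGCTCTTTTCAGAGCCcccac
Hist1h4c stem-loop, chr13:23698084-23698109, minus strand: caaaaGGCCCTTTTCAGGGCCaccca
H2afx stem-loop, chr9:44335235-44335260, plus strand: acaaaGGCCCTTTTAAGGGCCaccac
H3f3a poly(A) signal, chr1:180800838-180800863, minus strand: tttgaaaaatAATAAAagtaccaata
In Hist1h1c the annotated transcript ran on for 840 bases past the stem-loop, and in Hist1h4i for 330 bases. The annotated transcript of Hist1h2ac ran on for 2010 bases past it and had no poly(A) signal in its last 50 bases. The annotated model of Hist1h2bc, the highest histone row, has 2 exons and 742 bases after the stop codon and held neither motif in the searched windows.

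At a minimum of 1 count, a larger share of the histone rows than of all rows was detected. A count in at least 1 library was found for 51 of the 82 histone rows (62.2%), against 4692 of all 23420 rows (20.0%). A count in every library was found for 7 histone rows (8.54%) and for 264 of all rows (1.13%). Many of these detections were low: 22 of the 51 histone rows never passed 30 counts in a library. At least 10 counts in every library were found for 5 histone rows and for 225 of all rows. Of the replication-dependent rows, 44 of 68 had a count and 12 had a mean of 10 CPM or more. Detected members by type were 3 of 6 H1 rows, 10 of 18 H2A rows, 13 of 19 H2B rows, 7 of 12 H3 rows and 11 of 13 H4 rows. Of the replacement rows, 7 of 14 had a count and 5 had a mean of 10 CPM or more. All 4 H1 replacement rows (H1f0, H1fx, H1fnt and H1foo) had 0 counts in every library.

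Replication-dependent genes carried most of the histone signal in every library. Their levels summed to 5747 ± 812 CPM (Tomato+) and 5141 ± 1647 CPM (Tomato-), and those of the replacement genes to 859 ± 267 and 618.4 ± 278 CPM. They held between 78.5% and 96.2% of all histone CPM in a library, with a median of 88.1%. The lowest replication-dependent sum, 2575 CPM in Tomato- library 2, and the lowest replacement sum, 175 CPM in Tomato- library 5, lay in the libraries with few detected genes. Without those 3 libraries the Tomato- sums were 6174 and 822 CPM. Over all 10 libraries the mean sums of the replication-dependent rows by type were 3101 CPM for H2B, 1552 CPM for H1, 521 CPM for H4, 252 CPM for H2A and 18.04 CPM for H3. With the replacement rows added, H2A came to 579.8 CPM and H3 to 428.9 CPM.

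**Figure D1:**
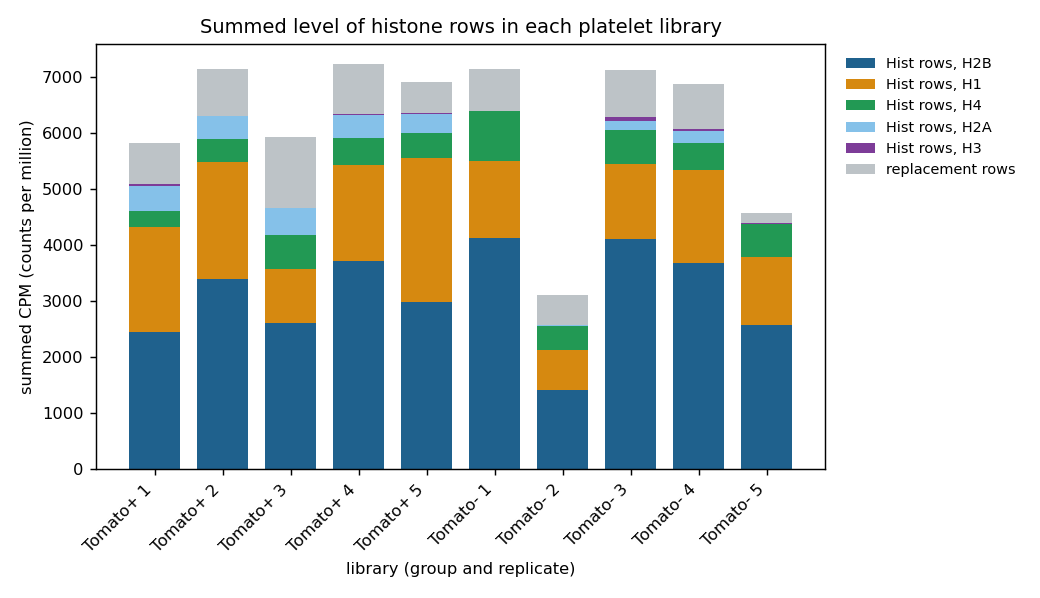
Summed CPM of the histone rows (vertical axis) in each of the 10 libraries (horizontal axis), stacked by histone type for the replication-dependent (Hist) rows and with the replacement rows in grey. H2B and H1 form most of every bar, and the lowest replication-dependent sum is 2575 CPM in Tomato- library 2.

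A single H2B gene and a single H1 gene made up most of the replication-dependent signal. Hist1h2bc and Hist1h1c were the highest and the next highest histone rows in 10 of 10 libraries and together held 76.5% to 86.4% of the replication-dependent CPM. Per kilobase of annotated exons, Hist1h2bc stood at 2611 CPM, Hist1h1c at 995 CPM and Hist1h4i at 493 CPM, and the other rows lay at 108 CPM or lower.

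Hist1h2bc encodes a core histone H2B and spans chr13:23684199-23692908 on the plus strand. Its level was 2407, 3293, 2596, 3589 and 2934 CPM in Tomato+ libraries 1 to 5, and 4103, 1370, 3991, 3443 and 2457 CPM in Tomato- libraries 1 to 5. The groups overlapped, with the highest and the lowest values both in Tomato-. It ranked at place 51 among all genes by mean CPM. Its coefficient of variation over the 10 libraries was 0.277, against a median of 0.387 for the 145 other tested genes at 1000 CPM or more.

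Hist1h1c encodes a linker histone, the H1 type that binds where DNA enters and leaves the nucleosome, and lies in 1 exon at chr13:23738808-23740367. Its level was 1874, 2088, 969, 1714 and 2560 CPM in Tomato+ and 1373, 718, 1347, 1662 and 1211 CPM in Tomato- libraries. The groups overlapped: 4 Tomato+ libraries lay above every Tomato- library, and Tomato+ library 3 lay below 4 of the Tomato- libraries. The means were 1841 ± 582 and 1262 ± 346 CPM. The other H1 rows with a count were Hist1h1d in 2 libraries (0.185 CPM or less) and Hist1h1e in 1 library (0.0946 CPM), and Hist1h1a, Hist1h1b and Hist1h1t had none.

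Among the other H2B genes, Hist1h2bn had 41.5, 39.1, 0.307, 0 and 16.4 CPM in Tomato+ and 0, 40.3, 69.6, 84.6 and 105 CPM in Tomato-. Hist1h2be had 0.257, 51.6, 0.154, 49.8 and 3.57 CPM in Tomato+ and 24.5, 0, 34.7, 85.4 and 0 CPM in Tomato-. Both genes had libraries near 0 and libraries above 40 CPM, and their groups overlapped. Hist1h2bm was low but had counts everywhere. Its level was 1.28, 0.876, 0.922, 0.556 and 1.31 CPM in Tomato+ and 0.368, 0.250, 1.23, 2.08 and 5.17 CPM in Tomato-, where the groups overlapped. Hist1h2ba, the H2B gene known from testis, also had a count in every library, between 0.154 and 1.35 CPM. These were 1 to 11 counts, and 38.2% of the 50-base windows of its transcript also occur in other genes, so its level is uncertain.

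Of the H4 genes, which encode the same core histone, 4 had a mean of 10 CPM or more. Hist1h4i (chr13:22040636-22041362, minus strand) led them with 196, 330, 232, 328 and 363 CPM in Tomato+ and 750, 273, 265, 362 and 483 CPM in Tomato-. Its groups overlapped, and Tomato- library 1 was the highest. Hist1h4c had 33.9, 42.0, 156, 56.5 and 0 CPM in Tomato+ and 89.6, 95.4, 152, 69.4 and 73.2 CPM in Tomato-, with the highest and the lowest value both in Tomato+. Hist1h4n had 51.3, 20.2, 106, 27.2 and 30.7 CPM in Tomato+ and 28.7, 36.8, 116, 20.7 and 25.1 CPM in Tomato-. In Hist1h4c and Hist1h4n library 3 was the highest of each group, and the groups overlapped. Hist1h4h had 0, 26.7, 92.1, 51.2 and 53.1 CPM in Tomato+ and 0.123, 0, 44.4, 30.8 and 0 CPM in Tomato-. Hist1h4a stayed lower, with 4.53, 0, 20.8, 7.42 and 0 CPM in Tomato+ and 13.2, 13.3, 17.7, 4.06 and 10.3 CPM in Tomato-. Groups overlapped for both genes.

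The 2 leading H2A genes were Hist1h2ac and Hist3h2a. Hist1h2ac (chr13:23681467-23683948, minus strand) had 239, 350, 481, 241 and 207 CPM in Tomato+ and 0, 27.0, 160, 40.6 and 6.28 CPM in Tomato-. Its groups did not overlap, since the lowest Tomato+ library lay above the highest Tomato- library. The means were 304 ± 113 and 46.8 ± 65.4 CPM, and without Tomato- library 3 the Tomato- mean was 18.5 CPM. Of the 3 libraries with few detected genes, all had 27.0 CPM or less, and without them the Tomato- mean was 100.4 CPM, still from 2 libraries below every Tomato+ library. Hist3h2a on chromosome 11 had 208, 56.3, 0, 182 and 136 CPM in Tomato+ and 0, 0, 0.0946, 155 and 0.185 CPM in Tomato-. Here the groups overlapped, as 1 library in each group broke from the rest. Its exons overlap those of Trim17, so reads of the 2 genes cannot be told apart there. Exons of further histone rows overlap other genes too. Among them are Hist1h2ac (with Gm24991 and Gm44350), Hist1h2be (with Hist1h1e and Gm11398) and H3f3a (with Gm17275 and H3f3aos).

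Only 1 replication-dependent H3 gene passed the expression filter. Hist1h3d had 27.1, 0, 2.77, 0 and 7.06 CPM in Tomato+ and 0, 0, 36.1, 22.8 and 16.4 CPM in Tomato-, with groups that overlapped. Summed H3 signal from replication-dependent rows ranged from 0 to 59.9 CPM per library.

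The replacement genes for H3, H3f3a and H3f3b, encode the same protein, the H3 variant that is laid down throughout the cell cycle and marks active genes. H3f3a (chr1:180800832-180813943, minus strand) had 152, 227, 483, 340 and 194 CPM in Tomato+ and 79.4, 235, 464, 329 and 174 CPM in Tomato-. Its values overlapped nearly completely, with means of 279 ± 134 and 256 ± 147 CPM. H3f3b on chromosome 11 had 121, 271, 564, 77.4 and 69.9 CPM in Tomato+ and 0, 0, 155, 174 and 0 CPM in Tomato-. All 5 Tomato+ libraries had counts, and the 3 libraries at 0 were exactly those that stood apart by their few detected genes. Leaving them out, the Tomato- mean was 164 CPM. The part of those libraries in the H3f3b difference was not tested.

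Among the replacement genes for H2A, H2afj and H2afz led. H2afj, which encodes H2A.J, had 399, 170, 129, 144 and 170 CPM in Tomato+ and 175, 0, 115, 152 and 0.185 CPM in Tomato-. The groups overlapped: Tomato- libraries 1 and 4 lay inside the Tomato+ range, and library 3 lay just below it. H2afz encodes H2A.Z, a variant placed at promoters. Its level was 61.1, 33.7, 98.2, 163 and 95.2 CPM in Tomato+ and 56.9, 288, 118, 136 and 0 CPM in Tomato-, with the highest and the lowest value both in Tomato-. H2afx, whose product is phosphorylated at DNA breaks and whose transcript carries the stem-loop shown above as well as a poly(A) signal, had counts in 3 libraries alone, at 139 and 170 CPM in Tomato+ libraries 2 and 4 and at 439 CPM in Tomato- library 1. The macroH2A gene H2afy had 20.9 CPM in Tomato+ library 5 alone, and H2afv, a further H2A.Z gene, had 3.42 CPM in Tomato+ library 1 alone.

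**Figure D2:**
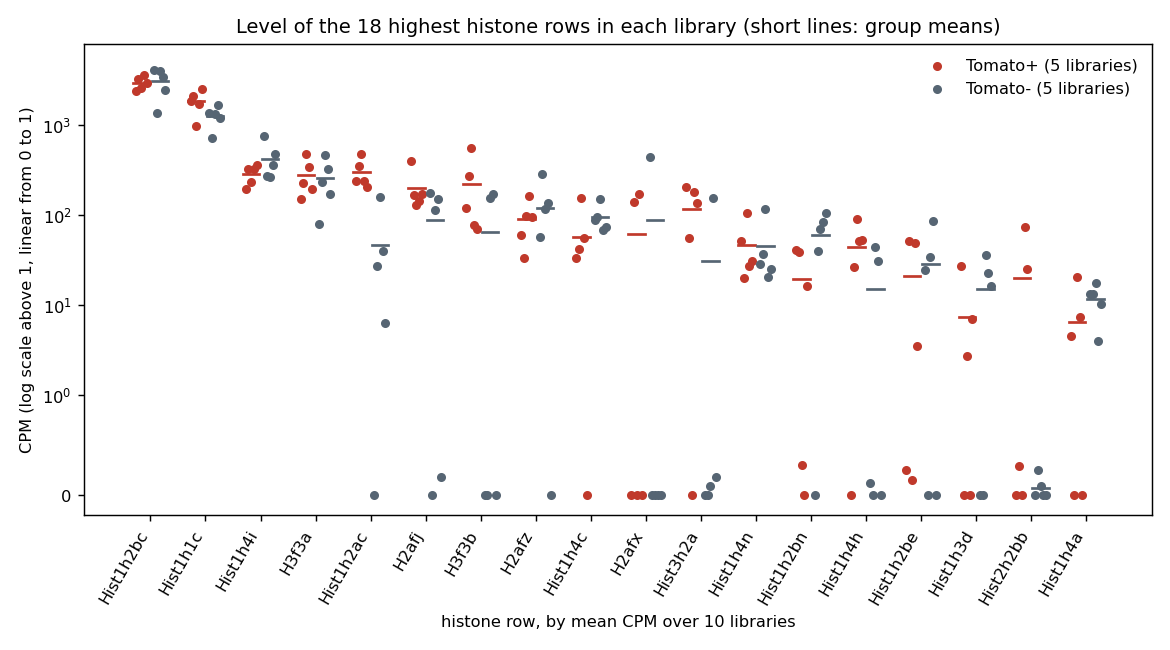
CPM of the 18 histone rows of highest mean (vertical axis, logarithmic above 1 and linear from 0 to 1) in each library, with a point per library and a short line at the group mean. Hist1h2bc and Hist1h1c have the highest means in both groups. Hist1h2ac shows groups that do not overlap, and many lower rows are at 0 in some libraries and above 10 CPM in others.

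The design sets Tomato+ against Tomato- platelets and so asks whether histone transcripts differ with the reporter. No histone gene passed. Of 1016 genes that entered the edgeR quasi-likelihood test (17 of them histone genes, 13 replication-dependent and 4 replacement), 0 were called at an adjusted p under 0.05, which is 0% of all genes tested. Before adjustment 9 genes had p under 0.05, 0 of them histone genes, and the adjusted p was 0.9996 for each histone gene. By log2 fold change, Tomato+ over Tomato-, 9 of the 17 were above 0 and 8 below, with a median of 0.13 against 0.21 over all tested genes, 58.3% of which were above 0. The replication-dependent genes had a median of -0.29 with 6 of 13 above 0, and the replacement genes a median of 0.77 with 3 of 4 above 0. With scaling by total counts in place of TMM the medians were -0.05 for the histone genes and -0.03 for all genes, 8 of 17 histone genes were above 0, and 48.6% of all genes were. By class, the replication-dependent median was -0.47 with that scaling, 0.03 with a replicate block and 0.28 with limma voom. The replacement median was 0.65, 1.66 and 3.09 in these settings, and that of all genes -0.03, 0.56 and 0.95.

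How tightly the test bounds a difference varied widely among the members. For Hist1h2bc the log2 fold change was 0.13 (SE 0.37, 95% interval -0.65 to 0.91), and with no expression filter the interval was -1.15 to 1.54. Its sign turned with scaling by total counts (-0.05) and without the 3 Tomato- libraries with few detected genes (-0.28). For Hist1h1c it was 0.73 (SE 0.45, 95% interval -0.22 to 1.68), and without those 3 libraries 0.30. For Hist1h2ac it was 2.74 (SE 2.06, 95% interval -1.64 to 7.12), and without the 3 libraries 1.71. It was 4.24 without Tomato- library 3 and 5.12 with limma voom (adjusted p = 0.604), and its smallest adjusted p in any setting run was 0.476. The SE was 1.36 for Hist1h4i, 1.52 for H3f3a and between 1.29 and 2.72 for the other 12 histone genes, so changes of several-fold in either direction lay inside their intervals. For H3f3b the estimate of 1.72 became 0.58 without the 3 libraries, 0.97 without Tomato+ library 3 and 6.76 with limma voom (adjusted p = 0.613).

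**Figure D3:**
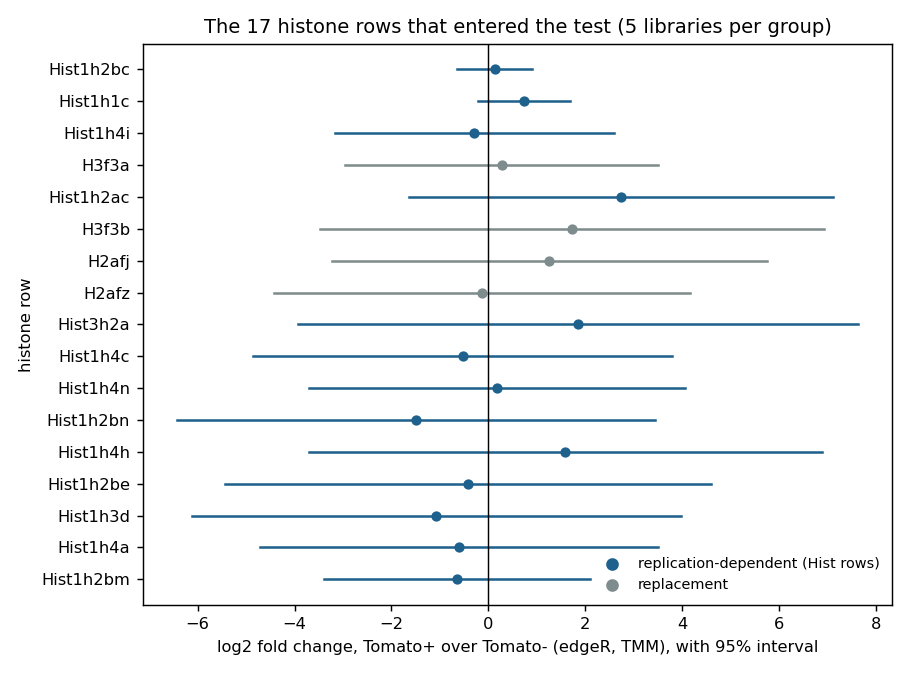
Log2 fold change of Tomato+ over Tomato- (horizontal axis, edgeR with TMM factors) for the 17 tested histone rows, with bars for the 95% interval. Rows are ordered by the average log CPM of the edgeR fit. Every interval includes 0, and those of Hist1h2bc (-0.65 to 0.91) and Hist1h1c (-0.22 to 1.68) are the narrowest.

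Hist1h2ac was the single tested histone gene whose groups did not overlap, with Tomato+ higher. Among all 1016 tested genes 5 (0.492%) separated with Tomato+ higher and 1 (0.0984%) with Tomato- higher, and of the 17 histone genes 1 and 0 did. DESeq2 called 1 of 22 histone genes with an adjusted p, against 218 of 1710 genes (12.7%). The histone gene was Hist2h2bb (log2 fold change 8.26, adjusted p = 0.0184), which had 0, 0.292, 0, 74.4 and 25.4 CPM in Tomato+ and 0, 0.250, 0.0946, 0 and 0 CPM in Tomato-. Its level in Tomato+ rested on libraries 4 and 5, and the whole of its transcript sequence is also found in the overlapping gene Gm20628. Of the 218 genes DESeq2 called, 182 had no count in 1 of the groups.

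Many histone rows were detected at the edge of the measurement. Of 251 histone values above 0, 104 were at 1 to 30 counts and 74 at 1 to 3 counts, while 12 were at 31 to 100 and 135 above 100. Values of 1 to 30 counts made up 41.4% of the histone values above 0, against 20.1% of those of all rows. There were 22 detected histone rows that never passed 30 counts. Counts in 1 library alone were found for 12 rows, among them H2afy with 240 counts, Hist2h3c1 with 145 and Hist1h3c with 106. By library, 24 to 32 histone rows were detected in Tomato+ and 17 to 31 in Tomato-, with 19, 17 and 19 in Tomato- libraries 1, 2 and 5. These 3 libraries also had the fewest detected genes overall.

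Histone genes come in near-identical copies, which limits what a gene's count can say. The share of 50-base windows of a gene's transcripts that also occur in another gene was taken from GENCODE M21. How reads with several alignments were counted is not stated in the labels or notes. The median share was 29.8% for the 12 replication-dependent protein-coding genes at 10 CPM or more, 48.4% for the 32 with lower counts and 74.2% for the 23 without a count. Shares of 50% or more were found in 3 of 12, 15 of 32 and 16 of 23 of them. Hist1h1c had 8.54% and Hist1h2ac 14.1% of windows shared, Hist1h2bc 30.6%, but Hist1h4n 85.6% and Hist1h2bn 86.4%, so the levels of the last pair are uncertain. Among the rows at 0, Hist1h1a, Hist1h1b and Hist1h1t had no shared window at all. The part of shared sequence in which rows were detected was not tested.

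**Figure D4:**
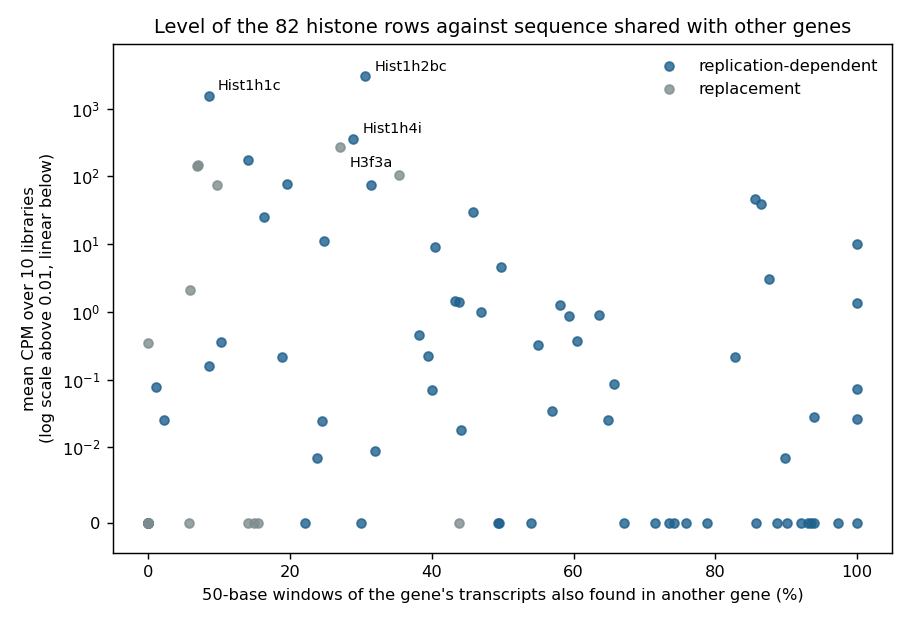
Mean CPM over 10 libraries (vertical axis, logarithmic above 0.01 and linear below) against the percent of 50-base transcript windows also found in another gene (horizontal axis) for the 82 histone rows. Hist1h1c lies at 8.54% and Hist1h2bc at 30.6%, and most rows beyond 70% are at 0.

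The end signals shown above were counted over all protein-coding histone genes. A poly(A) signal in the last 50 bases was annotated in 5 of the 12 replication-dependent genes at 10 CPM or more, in 7 of the 32 with lower counts and in 5 of the 23 without a count. All 7 replacement genes with counts had it, and 15463 of 19347 protein-coding genes of the table (79.9%) did. The stem-loop followed the stop codon in 9 of the 12, 24 of the 32 and 13 of the 23, and in 1 of the 7 replacement genes with counts (H2afx). Where the annotation reached 100 bases past the stop codon, these were 7 of 8, 15 of 15 and 5 of 8, against 29 of 18048 genes of the table (0.161%). Of these 29 genes, 27 were histone rows themselves. Some annotated models stop at the stop codon (2, 6 and 5 genes), and no motif could be found there.

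Chromosome 13 carries 55 of the 82 rows, 35 of them with counts, and 5359 of the summed mean CPM. Over all histone genes, 14 pairs of neighbours that face away from each other lay within 1 kb. In the pair of Hist1h2ac and Hist1h2bc 250 bases separate the starts. Mean levels per kilobase were 70.6 CPM for Hist1h2ac and 2611 CPM for Hist1h2bc. The sequence over this gap is shown because the highest histone row and the row whose groups did not overlap lie on its sides. It is the 250 bases before the RefSeq start of Hist1h2ac (GRCm38.p6), in the sense of that gene. Capitals mark matches, on either strand, to the octamer ATTTGCAT, to CCAAT and to TATAAA.
Hist1h2ac, chr13:23683960-23684209, minus strand: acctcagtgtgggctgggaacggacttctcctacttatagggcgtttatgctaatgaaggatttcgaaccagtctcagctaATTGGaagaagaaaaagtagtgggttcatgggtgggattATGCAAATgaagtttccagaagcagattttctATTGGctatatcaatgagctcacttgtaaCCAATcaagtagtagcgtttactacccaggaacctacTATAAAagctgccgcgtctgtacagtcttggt
Of 32851 RefSeq promoters of this kind, 1.60% held the octamer, 33.8% CCAAT and 12.4% TATAAA. Promoters were found for 72 of the 82 histone genes. The octamer stood in 7 of 17 H2A and 7 of 16 H2B promoters and in 0 of the 6 H1, 10 H3 and 12 H4 promoters of replication-dependent genes. CCAAT stood in all 17 H2A, all 16 H2B and all 6 H1 promoters, in 8 of 10 for H3 and in 3 of 12 for H4.

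Genes that act on histone transcripts and proteins are given beside the 20.0% of all rows that had a count. Of 17 listed genes for the 3′ end processing of histone messenger RNA, 16 had a row, 3 had a count and 0 entered the test. These 3 were Slbp at 32.9 CPM in Tomato- library 4 alone, the endonuclease complex member Cpsf2 at 193 CPM in Tomato- library 3 alone, and the scaffold Sympk in 3 libraries at 1.23 to 20.8 CPM. Of 23 listed genes of DNA replication and the cell cycle, 4 had a count, each in 1 Tomato+ library. They were E2f1 (62.8 CPM), Stmn1 (52.9 CPM), Top2a and Mcm4 (0.0872 CPM each), and none entered the test. Of 27 listed histone chaperones, which carry histones to and from DNA, 26 had a row, 7 had a count and 2 were tested, with 0 called. Nap1l1 stood at 228 ± 263 against 97.4 ± 107 CPM in Tomato- (log2 fold change 1.24, SE 2.29). Anp32a stood at 9.88 ± 8.76 against 2.29 ± 2.40 CPM (2.27, SE 1.92), while Rbbp4 (189 CPM) and Nap1l4 (118 CPM) had counts in 1 library each. Of 16 listed chromatin proteins of other kinds, 15 had a row, 4 had a count and 2 were tested, with 0 called. The DNA-bending protein Hmgb1 had 126 ± 91.8 against 268 ± 70.8 CPM (log2 fold change -0.84, SE 1.64), Hmga2 had 104 ± 37.0 and 77.3 ± 19.9 CPM (0.63, SE 1.79), and Cbx3 and Ctcf stayed at 8.01 CPM or lower. Padi2, an arginine deiminase, had 210 CPM in Tomato+ library 2 alone, and Padi4, the deiminase of histones in neutrophils, had 0 counts.

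Other cells can carry histone transcripts too, and markers listed for them were present in part. Whether platelets themselves make a listed marker was not tested. Lyz2, a lysozyme gene of monocytes and neutrophils, reached 7672 ± 1117 CPM in Tomato+ against 7857 ± 1189 CPM in Tomato-. It made most of the monocyte list's sums of 6690 to 10156 and 5881 to 9653 CPM (3 of 7 markers with counts, with F13a1 next). Ly6c2 had 0.0872 CPM in 1 library alone, and Csf1r, Cd68, Ccr2 and Ctss had 0 counts. Neutrophil markers with counts were 2 of 10 (Clec4d and S100a9), with sums of 0 to 532 and 0 to 276 CPM. Of 10 red cell markers, 8 had a row and 5 had a count (Bsg and Beta-s led), with sums of 504 to 1052 and 47.8 to 4104 CPM. B cell markers with counts were 1 of 6 (Cd37, sums up to 115 CPM). Of 8 T and NK cell markers, 6 had a row and 1 had a count (Nkg7, up to 20.7 CPM). Endothelial markers with counts were 4 of 6 (Pecam1 and Tie1 led), with sums of 464 to 1501 and 130 to 1725 CPM. Cdh5 and Emcn had 0 counts. The part of other cells in the histone levels was not tested.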

How the data were processed

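Libraries were made by Smart-seq+ and Nextera XT from FACS-sorted platelets, per the labels' protocols. For these 10 libraries the authors deposited counts of reads by gene symbol, not normalized. Trimmomatic, FastQC, STAR, featureCounts and mm10 are named in the submitters' processing notes. Versions, annotation, strand setting and multiple alignments are not stated there, so near-identical, overlapping and antisense genes cannot be told apart. The histone rows and gene lists were chosen with earlier results of these data known. CPM used the sum of all rows. Genes were tested with edgeR 4.0.16 (R 4.3.3; quasi-likelihood, robust, TMM, default filter with minimum count 10 and minimum total 15, group alone as term) and Benjamini-Hochberg adjustment over all 1016 tested genes at 0.05. SE is the fold change over the root of F. All 45 library pairs differed beyond sampling noise (chi-square at least 451 per degree of freedom) and were kept. Per-library values are given for each tested histone row and for the 5 highest replication-dependent and 5 highest replacement rows. From each list on histone handling the 4 highest genes are named, and from each list of another cell type the 2 highest. For the monocyte and endothelial lists the markers with 0 counts are named too, and Ly6c2. Alternatives were DESeq2 1.42.0, limma 3.58.1 voom, total-count scaling, no filter, a replicate block, a detection minimum of 10 counts, thinning to the smallest total, TMM-adjusted sums, sums without H2afx and pseudogenes, and leaving out each library. Sequences came from GENCODE M21, which matched all 82 histone rows and 21777 of 23420 rows, and from RefSeq. No genome was used.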

Additional observations from a re-analysis of the deposited data

Results flagged for a closer look

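Of 48 groups of 5 libraries compared, 9 had 1 library far from the other 4. The measure was the gap to the nearest library divided by the range, against Dixon's critical value of 0.71. That value is meant for independent, normally distributed values. Levels with many values at 0 and small whole numbers are not of that kind, so the 9 groups were not compared with chance. By level, these were Hist1h2ac in Tomato- library 3 (160 CPM), H2afj in Tomato+ library 1 (399 CPM), Hist3h2a in Tomato- library 4 (155 CPM), Hist1h4n in Tomato- library 3 (116 CPM), Hist1h3d in Tomato+ library 1 (27.1 CPM) and H2afx in Tomato- library 1 (439 CPM), all above the rest. By number, 27 replication-dependent rows were detected in Tomato+ library 5, against 20 to 22 in the other Tomato+ libraries. In Tomato+ library 3, 4 replacement rows were detected, against 5 in each of the others. The ratio of replication-dependent to replacement CPM was 25.2 in Tomato- library 5, where H3f3b and H2afz had no count. Without Tomato- library 4 the Tomato- mean of Hist3h2a was 0.0699 CPM, and without Tomato- library 1 that of H2afx was 0.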

How the results depend on the processing

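The count of 0 called histone genes held in every setting but DESeq2, which called 1, and the count over all genes was 218 with DESeq2, 1 with limma voom and 0 in the other settings, without each library too. Replication-dependent genes detected fell from 44 to 28 at a minimum of 10 counts. Summed levels moved by less than 1 SD in each setting run. Of the 17 tested histone genes, 11 kept their sign throughout and 6 turned. Hist1h2bc turned with total-count scaling (-0.053), and H2afz, Hist1h2be and Hist1h2bm with limma voom (1.51, 0.34 and 0.0047). Without the 3 libraries with few detected genes, a setting added after seeing the data, Hist1h2bc (-0.28), H3f3a (-0.39) and Hist1h4n (-0.39) turned. With 1 library left out, the log2 fold changes ran from -0.081 to 0.28 for Hist1h2bc, from -0.022 to 0.68 for H3f3a, from -0.50 to 0.33 for H2afz, from -0.38 to 1.04 for Hist1h4n, from -1.05 to 0.74 for Hist1h2be and from -0.95 to 0.17 for Hist1h2bm, and from 1.52 to 10.66 for Hist3h2a, the highest without Tomato- library 4. The cause was not tested. Over these 17 genes the smallest adjusted p in any setting was 0.476, for Hist1h2ac with no filter. Among histone genes outside the 17, it was 0.0184 for Hist2h2bb with DESeq2 and 0.128 for several with no filter.

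Same-numbered libraries showed little shared deviation (correlations from -0.11 to 0.12, 1 of 5 over 0.1). Such correlations cannot decide whether these libraries share a source, and the labels do not say. With the replicate block 0 histone genes and 0 genes in all were called, and H2afz (0.31) and Hist1h2bm (0.029) turned, while Hist1h2ac came to 4.40 and H3f3b to 10.04.

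With a minimum of 10 counts in each library (225 genes), also added after seeing the data, 0 were called. Without a filter 0 of 4692 were, with 1764 at an unadjusted p under 0.05, against 9 with it. In the shallowest library a count of 0 allows a level of up to 0.554 CPM.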
